A study of Oryza sativa with 6 samples.

Results

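The 9 core genes of the rice circadian clock were followed across 6 panicle libraries. They were picked out of the table by gene identifier, by a rule that uses no measured value, although the list was drawn up with earlier results of these data known. They are GIGANTEA, LHY/CCA1, PRR1, PRR37, PRR73, PRR95, PRR59, ELF3 and LUX. All 9 were found among the 39367 genes of the deposited table, and all 9 passed the filter on low counts that left 25636 genes for testing. The libraries are 3 from CTB3-cr1, a rice line the labels describe as a CTB3 knockdown (the table's column headings call it KO), and 3 from wild-type Nipponbare, the cultivar used as control. Every panicle had spent 1 day in a cold treatment abbreviated CS-PT, controls included. CTB3-cr1 is the only CTB3 line here, the sources used here state neither the plants' age nor the hour of harvest, and panicles without cold were not analysed here.

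The plant clock is a set of genes that repress one another in turn through the day, so that each transcript peaks at its own hour. LHY/CCA1, a Myb-type repressor, peaks around dawn. The pseudo-response regulators (PRR) follow through the day and repress LHY/CCA1, and GIGANTEA, a large protein that links the clock to flowering, peaks late in the day. ELF3 and LUX are parts of the evening complex, a repressor first described in Arabidopsis. In Arabidopsis, cold is known to flatten the daily cycling of several clock transcripts. Because these genes swing with the hour, a difference between 2 groups of plants can only be read beside the time of sampling.

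Library totals ranged from 14422565 to 16982031 counts. On the leading principal component of all genes tested, which held 38.9% of the variance, Nipponbare replicate 2 scored 80.3 and the other 5 libraries -54.8 to 17.2. No source used here pairs CTB3 with a gene identifier, so the targeted gene was not analysed here and the labels were not checked against it. Markers of panicle tissue were present in every library. The summed level of 5 floral-organ genes was 275 to 299 FPKM (fragments scaled to gene length and library size) in CTB3-cr1 and 253 to 297 FPKM in Nipponbare, and that of 3 meiocyte genes 48.3 to 79.7 FPKM and 50.0 to 59.6 FPKM.

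The order of the 9 levels was nearly the same in both genotypes and spanned a wide range. On the length-scaled FPKM scale GIGANTEA stood at 246 FPKM ± 28.7 (SD, n = 3) in CTB3-cr1 and 211 FPKM ± 26.0 (SD, n = 3) in Nipponbare. PRR95 stood at 239 FPKM ± 22.0 (SD, n = 3) and 209 FPKM ± 4.23 (SD, n = 3). These 2 genes overlapped one another in each genotype and could not be ranked. LHY/CCA1 came next and overlapped neither neighbour, at 142 FPKM ± 25.5 (SD, n = 3) and 133 FPKM ± 4.71 (SD, n = 3). PRR1 followed at 58.5 FPKM ± 5.04 (SD, n = 3) and 54.4 FPKM ± 0.442 (SD, n = 3). PRR59 and PRR37 overlapped in both genotypes and changed places between them, with PRR59 ahead in CTB3-cr1 (43.9 against 42.4 FPKM) and PRR37 ahead in Nipponbare (40.2 against 39.0 FPKM). PRR73, ELF3 and LUX closed the order without overlap, at means over the 6 libraries of 22.5, 11.8 and 1.94 FPKM. Among all genes tested, GIGANTEA lay at percentile 98.7 of mean FPKM over the 6 libraries and LHY/CCA1 at 97.2, so a dawn-phased and a late-day transcript were both among the most abundant. LUX lay at percentile 17.8.

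**Figure D1:**
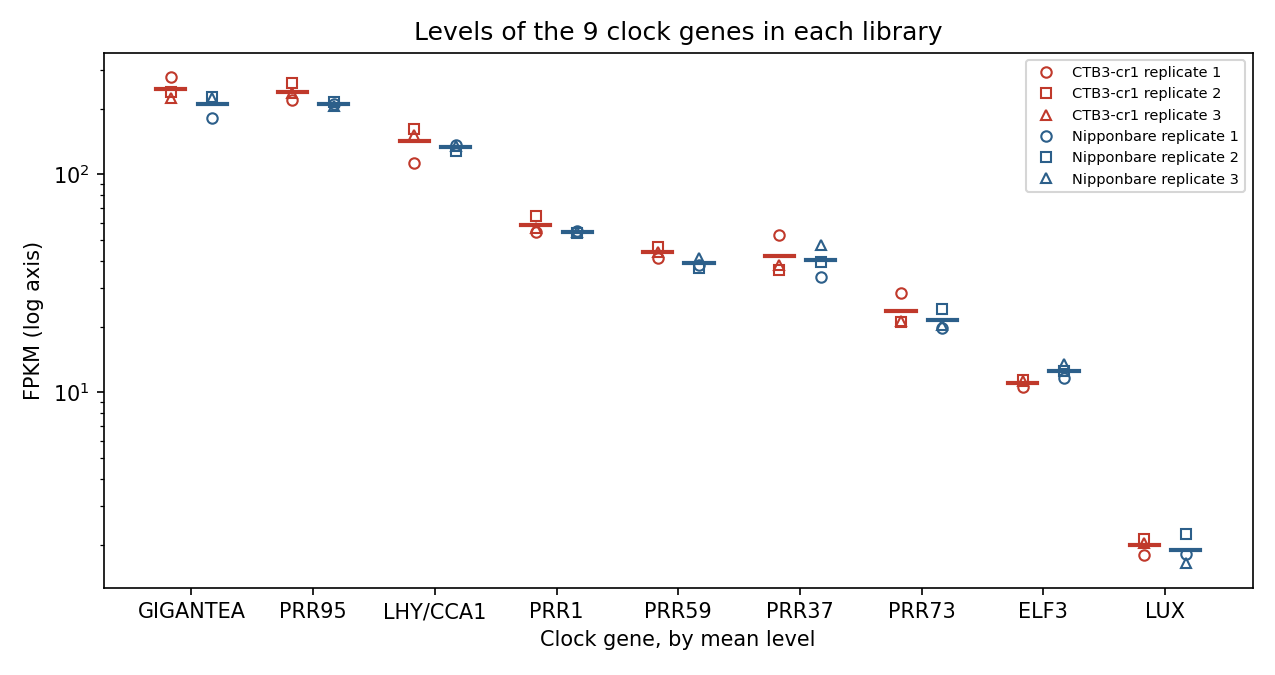
Level of each clock gene in FPKM (log axis), with 1 open symbol per library, CTB3-cr1 in red and Nipponbare in blue, and a bar at each genotype's mean of 3 libraries. The genes run from GIGANTEA, at a mean of 229 FPKM over the 6 libraries, to LUX at 1.94 FPKM.

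Setting CTB3-cr1 against Nipponbare asks whether the clock genes differed between the genotypes after 1 day in the cold. By edgeR's quasi-likelihood test none of the 9 passed the threshold of 0.05 on the adjusted p, which 0.078% of all genes tested did in either direction. None reached an unadjusted p under 0.05 either, which 5.25% of all genes did. DESeq2 called 0 members as well, and the authors' deposited table, which calls 0.621% of its genes, gives each of the 9 an adjusted p of 1.00. Fold changes ran from 0.88 for ELF3 to 1.17 for GIGANTEA. The log2 fold change was above 0 for 8 of the 9, beside 49.5% of all genes tested, and its median was 0.10, beside -0.0026 over all genes. Among genes with a mean of at least 5 CPM, 52.3% were above 0, with a median of 0.01. The number of members above 0 was 6 when CTB3-cr1 replicate 1 was left out. The members share libraries, so their signs are not independent. Without Nipponbare replicate 2 the log2 fold changes ran from -0.19 for ELF3 to 0.28 for GIGANTEA, and 0 members passed in edgeR. In whole panicles, fewer cells of a type and less RNA per cell cannot be told apart.

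**Figure D2:**
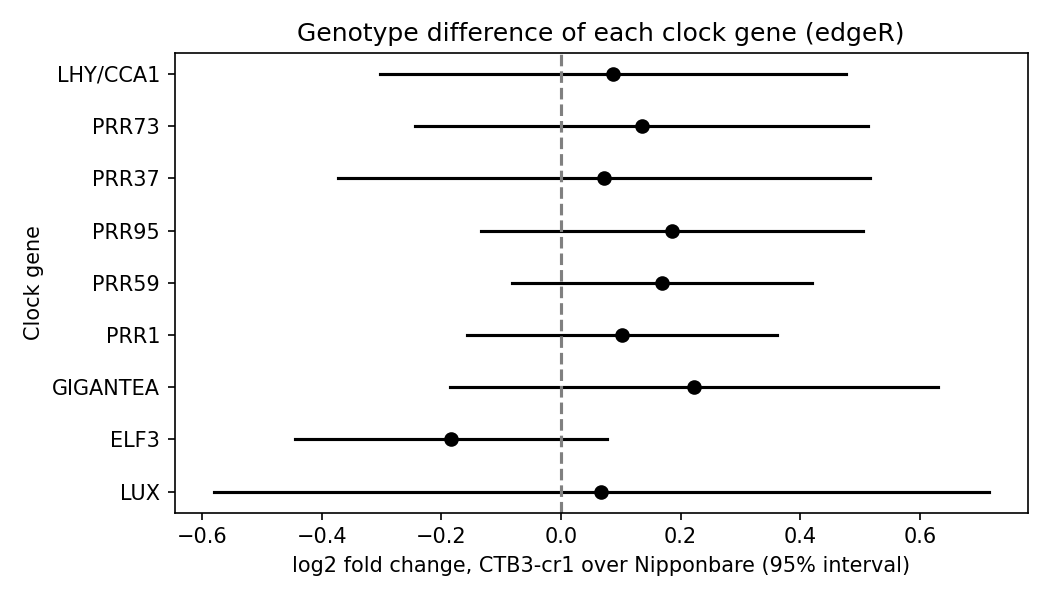
Fitted log2 fold change of CTB3-cr1 over Nipponbare for each clock gene (point) with its 95% interval (line), from edgeR on 3 libraries a genotype. Every interval includes 0, and the widest is that of LUX, from -0.58 to 0.72.

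LHY/CCA1 (Os08g0157600, named CIRCADIAN CLOCK ASSOCIATED 1 in the deposited table) lies on chromosome 8 from 3360865 to 3373395, on the plus strand. Its level was 374, 530 and 502 CPM (counts scaled to library size) in CTB3-cr1 replicates 1, 2 and 3, and 452, 425 and 446 CPM in Nipponbare replicates 1, 2 and 3. CTB3-cr1 thus held both its lowest and its highest library, with Nipponbare between them. The log2 fold change was 0.09 ± 0.17 (SE), with a 95% interval of -0.30 to 0.48. The deposited table gives the name LATE ELONGATED HYPOCOTYL to another gene, Os04g0583900, which is not a member. That gene was far weaker: CTB3-cr1 averaged 12.9 CPM ± 1.14 (SD, n = 3), Nipponbare averaged 10.9 CPM ± 2.82 (SD, n = 3), and the groups overlapped.

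Among the pseudo-response regulators, PRR73 and PRR37 shared a pattern over the CTB3-cr1 libraries. PRR73 (Os03g0284100, chromosome 3, 9759666 to 9768689) stood at 114, 83.8 and 85.0 CPM in CTB3-cr1 replicates 1, 2 and 3 and at 78.8, 97.6 and 81.5 CPM in Nipponbare replicates 1, 2 and 3. PRR37 (Os07g0695100, chromosome 7, 29616705 to 29629215) is the heading date gene Hd2, a repressor of flowering in long days. It stood at 176, 121 and 129 CPM in CTB3-cr1 and at 113, 134 and 159 CPM in Nipponbare. CTB3-cr1 replicate 1 was the highest of the 6 libraries for both genes, and Nipponbare replicate 1 the lowest. For PRR73 the log2 fold change was 0.13 ± 0.16 (SE), and it was 0.07 ± 0.19 (SE) for PRR37. Without CTB3-cr1 replicate 1 they turned to -0.02 and -0.11.

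PRR95 and PRR59 leaned towards CTB3-cr1. PRR95 (Os09g0532400, chromosome 9, 20885173 to 20889792) stood at 537, 641 and 581 CPM in CTB3-cr1 and at 513, 528 and 504 CPM in Nipponbare. PRR59 (Os11g0157600, chromosome 11, 2789011 to 2793728) stood at 97.8, 110 and 105 CPM and at 91.2, 89.1 and 97.8 CPM. The groups did not overlap for either gene, but for PRR59 by a margin of under 0.1 CPM, and on FPKM the PRR59 groups did overlap. The log2 fold changes were 0.19 ± 0.14 (SE) and 0.17 ± 0.11 (SE), with unadjusted p of 0.213 and 0.156 in edgeR. The intervals reach 0.51 and 0.42, so a rise of up to 1.42-fold in PRR95 lies within the error.

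PRR1 (Os02g0618200, chromosome 2, 24569489 to 24572391) is the rice counterpart of Arabidopsis TOC1, which represses the dawn genes. Over all 6 libraries it had the smallest ratio of highest to lowest library of the 9 (1.18), at 125, 146 and 131 CPM in CTB3-cr1 and 125, 124 and 125 CPM in Nipponbare. The 3 Nipponbare values had a coefficient of variation of 0.50%, less than the 2.28% that counting error alone would give. CTB3-cr1 replicate 2 was the highest library, and the log2 fold change was 0.10 ± 0.11 (SE).

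GIGANTEA (Os01g0182600, chromosome 1, 4329362 to 4338486) had the largest positive log2 fold change of the 9, at 0.22 ± 0.17 (SE), with an interval of -0.19 to 0.63. Its levels were 1213, 1029 and 973 CPM in CTB3-cr1 replicates 1, 2 and 3 and 787, 994.7 and 974.9 CPM in Nipponbare replicates 1, 2 and 3. CTB3-cr1 replicate 1 was high, Nipponbare replicate 1 was low, and the other 4 libraries lay between 973 and 1029 CPM. The log2 fold change was 0.13 without CTB3-cr1 replicate 1, 0.12 without Nipponbare replicate 1 and 0.28 without Nipponbare replicate 2.

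The evening complex was represented by ELF3 and LUX. ELF3 (Os06g0142600, chromosome 6, 2234581 to 2239058) also carries the heading date name Hd3b and was the only member lower in CTB3-cr1. Its levels were 24.4, 26.2 and 26.2 CPM in CTB3-cr1 and 27.0, 29.0 and 31.2 CPM in Nipponbare, so the groups did not overlap. The log2 fold change was -0.18 ± 0.11 (SE), with an interval of -0.45 to 0.08 and an unadjusted p of 0.141 in edgeR. With library size alone as the scaling, the ELF3 groups overlapped. LUX (Os01g0971800, chromosome 1, 42874273 to 42875515, named PHYTOCLOCK 1) was read 35, 43 and 44 times in CTB3-cr1 and 36, 39 and 35 times in Nipponbare. At these counts, counting error is 15.7% in CTB3-cr1 and 16.5% in Nipponbare, as large as the spread seen (8.25% and 16.2%), and its interval of -0.58 to 0.72 includes changes of up to 1.64-fold.

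Groups without overlap numbered 3 of the 9 members (PRR95, PRR59 and ELF3), beside 10.5% of all genes tested. With RLE or upper-quartile scaling, or on FPKM, the number was 2 (PRR95 and ELF3). With library size alone it was 3 (PRR95, PRR59 and PRR1). With 3 libraries against 3, an exact permutation test of a single gene cannot go below p = 0.1. Coordinates follow the deposited table, and the sources used here do not name its genome build. A hypothetical gene on the opposite strand overlaps PRR73 by 7798 bases and has 0 counts in every library. No listed gene overlaps the other 8 members.

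Whether the 6 libraries look harvested at one time of day was read from how far each member moved between libraries. On TMM-scaled CPM no member differed by more than 1.55-fold between any 2 libraries. With library size alone as the scaling, the ratio reached 1.67 for PRR37, 1.66 for GIGANTEA and 1.56 for PRR73. On TMM-scaled CPM the ratio of highest to lowest library was 1.55 for PRR37, 1.54 for GIGANTEA, 1.45 for PRR73, 1.42 for LHY/CCA1, 1.37 for LUX, 1.28 for ELF3, 1.27 for PRR95, 1.24 for PRR59 and 1.18 for PRR1. The median ratio was 1.65 over all genes tested and 1.49 over the 18524 genes with a mean of at least 5 CPM, a comparison that favours abundant genes because they carry less counting error. All 9 members lay below the first of these medians and 7 below the second. LUX is set beside the second median here and below, although its own mean is under 5 CPM and its counting error is larger. Within single genotypes the picture was mixed. Within Nipponbare, 7 of the 9 lay below the median of the genes at 5 CPM or more, among them LHY/CCA1 (ratio 1.06, percentile 5.23), PRR95 (ratio 1.05, percentile 3.14) and PRR1 (ratio 1.01, percentile 0.162), while PRR37 (percentile 61.8) and LUX (percentile 57.8) lay above it. Within CTB3-cr1, 6 of the 9 lay below it, while PRR37 (ratio 1.45, percentile 70.2), LHY/CCA1 (ratio 1.42, percentile 67.1) and PRR73 (ratio 1.36, percentile 60.6) varied more than the median gene.

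**Figure D3:**
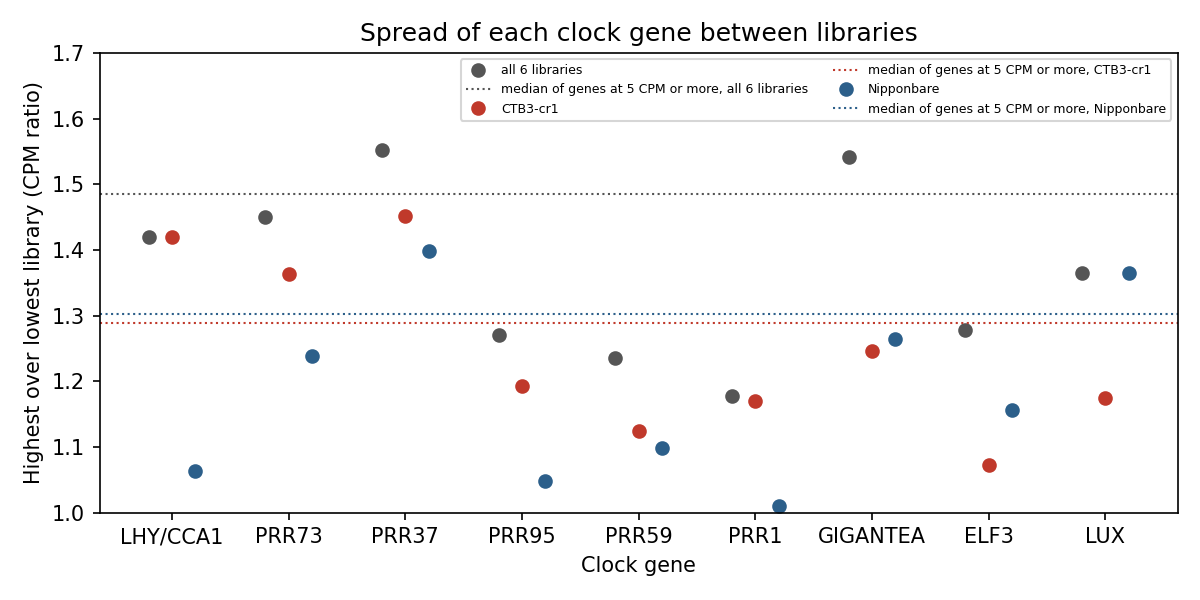
Ratio of the highest to the lowest library for each clock gene on the CPM scale, over all 6 libraries (grey) and within CTB3-cr1 (red) and Nipponbare (blue), with dotted lines at the median ratio of genes at 5 CPM or more. Over all 6 libraries, PRR37 and GIGANTEA lie above the median of 1.49 and the other 7 genes below it. LUX is among these 7, although its own mean is under 5 CPM.

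The balance between dawn and late-day genes was also read within each library, where no scaling between libraries enters. The log2 FPKM of LHY/CCA1 minus that of GIGANTEA was -1.30, -0.56 and -0.56 in CTB3-cr1 replicates 1, 2 and 3, and -0.41, -0.83 and -0.73 in Nipponbare replicates 1, 2 and 3. GIGANTEA was thus the higher of the pair in every library, and most clearly so in CTB3-cr1 replicate 1. The means were -0.81 ± 0.43 (SD, n = 3) in CTB3-cr1 and -0.66 ± 0.22 (SD, n = 3) in Nipponbare, closer together than the spread within either genotype. Without CTB3-cr1 replicate 1 the CTB3-cr1 mean was -0.56, on the other side of the Nipponbare mean.

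In this balance CTB3-cr1 replicate 1 differed most from the rest. Of the 8 differences between LHY/CCA1 and another member, 6 were lowest in that library, namely those from PRR73, PRR37, PRR95, PRR59, PRR1 and GIGANTEA. All 8 share the LHY/CCA1 value and are not independent. Relative to each gene's mean over the 6 libraries, on log2(CPM + 0.5), LHY/CCA1 was at -0.27 in that library, PRR73 at 0.35, PRR37 at 0.36 and GIGANTEA at 0.30, while PRR95, PRR59 and PRR1 were within 0.05 of their means. The evening-complex genes were below their means there, ELF3 at -0.16, its lowest value of the 6 libraries, and LUX at -0.08. With that library the difference of LHY/CCA1 from PRR37 spanned 1.04 on the log2 scale and that from PRR73 0.95. Without it the spans were 0.63 and 0.54, a shrinkage that its place as the lowest library brings about. The spans from ELF3 (0.50) and LUX (0.52) were the same with and without it. CTB3-cr1 replicate 1 also had the lowest score on the leading principal component (-54.8). CTB3-cr1 replicate 3 came next at -42.3, and held the highest or lowest value for 0 members. The part of this component in the clock values was not tested.

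**Figure D4:**
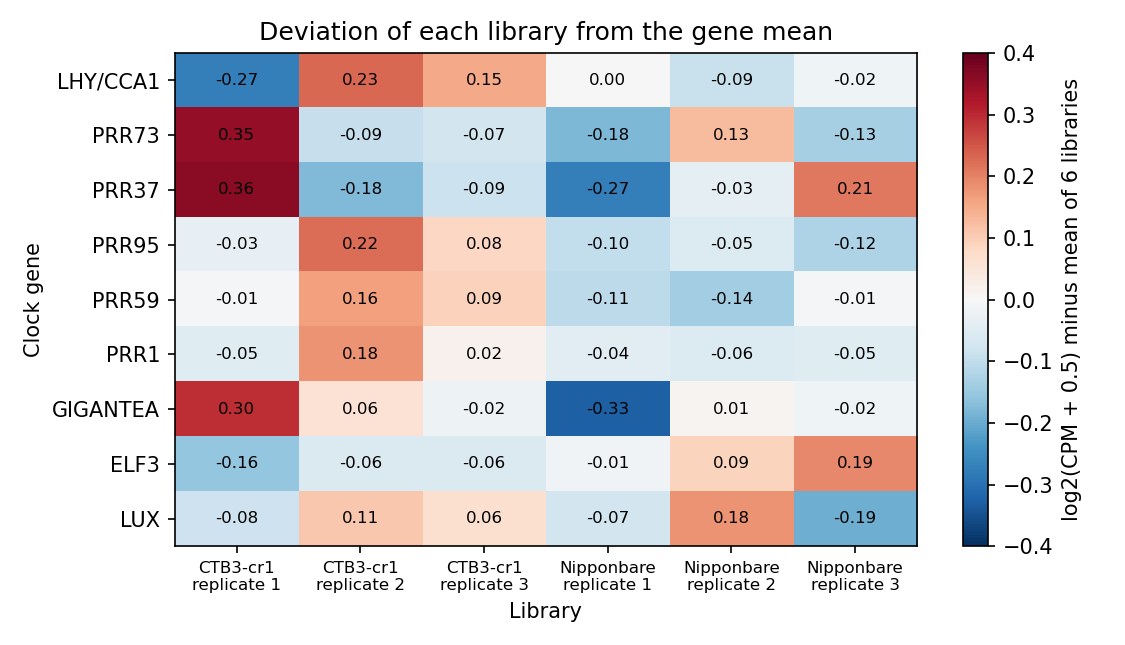
Deviation of each library from the gene's mean over 6 libraries, on log2(CPM + 0.5), with genes in rows and libraries in columns. CTB3-cr1 replicate 1 is below the mean for LHY/CCA1 (-0.27), ELF3 (-0.16) and LUX (-0.08) and high for PRR73, PRR37 and GIGANTEA (0.35, 0.36 and 0.30). Nipponbare replicate 1 is low for GIGANTEA (-0.33).

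**Figure D5:**
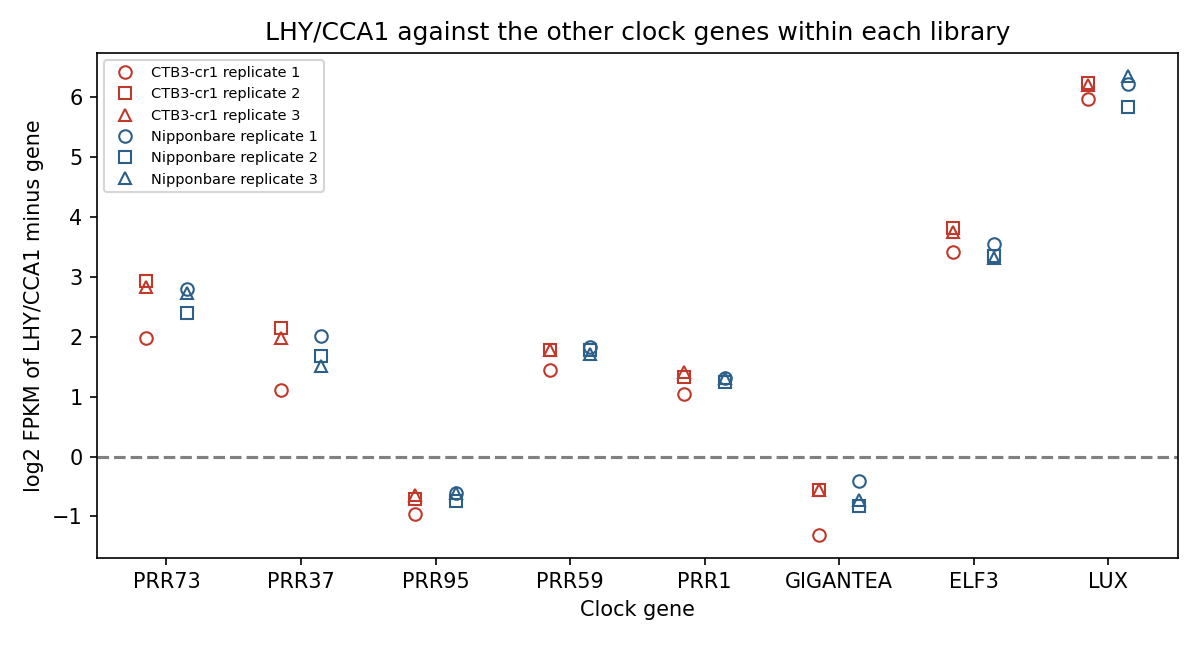
Difference between the log2 FPKM of LHY/CCA1 and that of each other clock gene within each library, with 1 symbol per library. The genotypes overlap for all 8 genes, and the circle of CTB3-cr1 replicate 1 is the lowest symbol for PRR73, PRR37, PRR95, PRR59, PRR1 and GIGANTEA.

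No sorting of the libraries by hour was attempted on these 9 transcripts. The differences from LHY/CCA1 overlapped between the 2 genotypes for every other member. On TMM-scaled CPM the levels of PRR95, PRR59 and ELF3 did not overlap. CTB3-cr1 replicate 1 stood furthest out in the differences from LHY/CCA1, whereas CTB3-cr1 replicate 2 held the highest value for the most members, 4 of the 9. The hour itself cannot be read from the 9 transcripts, since no time course of panicles in this cold treatment was analysed here. The ratios given above come from these same libraries, so any effect of harvest hour is already part of them. They cannot show how large a difference in hour would be detected.

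Nipponbare replicate 2, the library apart on the leading principal component, was not extreme in the main clock genes. Its LHY/CCA1 level of 425 CPM and GIGANTEA level of 994.7 CPM lay within the range of the other 5 libraries. It held the lowest value for PRR59 and PRR1, by small margins, and the highest for LUX. Chlorophyll a/b-binding genes, a sign of green tissue and themselves under clock control in plants, summed to 4103 FPKM in that library and to 2040 to 2511 FPKM in the other 5. That list holds 20 genes found by words in their names, of which 3 had no count in any library and 1 is a CCT-domain regulator rather than a light-harvesting protein. The 1 gene listed as a Rubisco small subunit was at 0 in every library. The summed level of 6 tapetum genes was 516 to 675 FPKM in CTB3-cr1 and 917 to 1330 FPKM in Nipponbare, without overlap, and 5 of the 6 had a negative log2 fold change although none passed in edgeR. All 3 meiocyte genes had a positive log2 fold change (median 0.44), as had 3 of the 5 floral-organ genes, and none of these passed either. The part of tissue makeup in the clock values was not tested.

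Other genes of the clock, of light perception and of day-length response gave no call either. The list holds 46 genes, 18 chosen by identifier and 28 found only by words in their deposited names or descriptions. Of these 46 genes, 37 were tested, and 0 passed in either direction in edgeR or DESeq2, with 0 at an unadjusted p under 0.05. Over all genes tested in edgeR those shares were 0.078% and 5.25%. The log2 fold change was positive for 18 and negative for 19, with a median of -0.01. The groups did not overlap for 3 of the 37, against 10.5% of all genes. The 6 with the highest CPM, which is not scaled to gene length, were CONSTANS-like gene 4 (Os02g0610500), the kinase gene WITH NO LYSINE KINASE 1 (Os07g0572800), the blue-light F-box genes FKF1 (Os11g0547000) and ZEITLUPE 2 (Os06g0694000), and the photoreceptor genes cryptochrome 2 (Os02g0625000) and PHYTOCHROME B (Os03g0309200).

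FKF1 and ZEITLUPE 2 encode light-sensing proteins that mark clock or flowering regulators for breakdown. FKF1 averaged 141 CPM ± 12.4 (SD, n = 3) against 130 CPM ± 19.1 (SD, n = 3), with CTB3-cr1 given first, and ZEITLUPE 2 averaged 118 CPM ± 8.79 (SD, n = 3) and 127 CPM ± 11.1 (SD, n = 3). PHYTOCHROME B, a red-light receptor, was steady at 97.9 CPM ± 3.33 (SD, n = 3) and 101 CPM ± 2.91 (SD, n = 3). Cryptochrome 2 had a log2 fold change of -0.01 ± 0.15 (SE), CONSTANS-like gene 4 one of -0.01 ± 0.13 (SE) and WITH NO LYSINE KINASE 1 one of 0.14 ± 0.16 (SE). In each of these 6 genes the groups overlapped.

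Some flowering genes downstream of the clock were nearly silent in these panicles, while other flowering regulators on the wider list were not. CONSTANS-like gene 4, described in the deposited table as a flowering repressor, averaged 193 CPM in CTB3-cr1 and 194 CPM in Nipponbare. Hd1, Ghd7 and Ehd1, regulators of flowering that act in leaves, had 0 counts in all 6 libraries, which allows up to 3 counts over a genotype, or 0.0623 CPM in CTB3-cr1 and 0.0638 CPM in Nipponbare (counting error only). The florigen gene Hd3a had 0 counts in each CTB3-cr1 library and 3, 12 and 2 in Nipponbare replicates 1, 2 and 3. Hd1, Ghd7, Ehd1 and Hd3a lay below the filter and were not tested.

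The genes whose pattern over the 6 libraries was most like that of LHY/CCA1 were Os04g0579700 (similar to a predicted protein, r = 0.993), Os10g0575000 (basic helix-loop-helix protein 009, r = 0.990) and Os02g0215900 (a receptor-like kinase gene, r = 0.983). For GIGANTEA they were Os02g0164600 (a pentatricopeptide repeat protein, r = 0.997), Os01g0892600 (a pectin acetylesterase family protein, r = 0.982) and Os09g0376900 (a potassium transporter, r = 0.979). Each r is Pearson's over 6 libraries on log2(CPM + 0.5), the highest among 14042 genes with a deposited name or a functional description and a mean of at least 5 CPM. At r of 0.9 or more there were 61 genes for LHY/CCA1 and 84 for GIGANTEA, and none of the other 8 clock members was among the 3 nearest to either. LUX, at means of 2.50 CPM in CTB3-cr1 and 2.39 CPM in Nipponbare, lay below the 5 CPM minimum and could not appear. These values share libraries and depth and describe likeness only.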

How the data were processed

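RNA from rice panicles was sequenced by the authors, who trimmed reads with fastp 0.19.7, aligned them with HISAT2 and compared groups with DESeq2, per the submitters' processing notes. The sources used here do not give the read counter, its strand setting, the genome build or the annotation. The deposited table holds raw counts and FPKM per library, per the file headers. Per the file headers, it also holds the authors' own log2 fold changes and p-values, and their mean signal per group, which was not used. Of 39369 lines, 2 without a gene identifier were left out, at most 0.000478% of a library.

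Sample titles gave the groups and the replicate numbers, and call the samples biological replicates. The test was edgeR 4.0.16 (R 4.3.3) with filterByExpr, TMM and the quasi-likelihood F test, adjusted by Benjamini-Hochberg over 25636 genes at a threshold of 0.05. CPM uses TMM-scaled library sizes, and standard errors are the log2 fold change over the square root of F. Alternatives were DESeq2 1.42.0, limma-voom and limma-trend (limma 3.58.1), 3 other scalings, 2 other filters, the replicate block and each library left out. The count of groups without overlap under other scalings, and the spans of the differences from LHY/CCA1 without CTB3-cr1 replicate 1, were added after seeing the data. Highest-to-lowest library ratios were repeated under the other scalings, on FPKM and without each library. In simulated counts for this comparison over 25334 genes the test recovered 77.3% of 4-fold and 20.2% of 2-fold changes.

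The members and lists were chosen with earlier results of these data known. Named genes were all 9 members, called or otherwise the 6 genes of the wider list with the highest CPM, and the 3 genes most like LHY/CCA1 and GIGANTEA. Os04g0583900, Hd3a, Hd1, Ghd7 and Ehd1 were named after their values were seen. No pair of replicates agreed within sampling noise (smallest chi-square per degree of freedom 16.3). Library totals were 14422565 to 16982031 counts, and the spread between replicates exceeded counting error for most members. It did not for LUX in either genotype, for ELF3 in CTB3-cr1 (4.01% against 4.91%) or for PRR1 in Nipponbare (0.50% against 2.28%).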

Additional observations from a re-analysis of the deposited data

How the results depend on the processing

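No clock member and no gene of the wider list passed the threshold under any alternative run, and the lowest adjusted p of a member was 0.689, among 152 repeats of the member fold changes. Of these, 147 kept the sign and 5 reversed, each on leaving out 1 library: PRR73 (-0.018) and PRR37 (-0.11) without CTB3-cr1 replicate 1, LHY/CCA1 (-0.010) without CTB3-cr1 replicate 2, PRR37 (-0.04) without Nipponbare replicate 1 and LUX (-0.011) without Nipponbare replicate 3. On leaving out libraries these 4 reached at most 0.23 for PRR73 and for LHY/CCA1, 0.22 for PRR37 and 0.20 for LUX. The number of members above 0 ranged from 6 to 8 on leaving out libraries. The count of all genes past the threshold, 20 with 16 higher and 4 lower in edgeR, was 202 with DESeq2 (69 higher, 133 lower), 4 with the replicate block (3 higher, 1 lower) and 25 higher with no filter. On leaving out single libraries it ranged from 4 to 16, with 3 to 14 higher and 1 to 2 lower. The cause was not tested. Same-numbered replicates correlated at -0.27, 0.37 and -0.07 in their deviations from the group means. Unlike-numbered pairs ran from -0.39 (CTB3-cr1 replicate 2 with Nipponbare replicate 3) to 0.47 (CTB3-cr1 replicate 1 with Nipponbare replicate 3). Deviations in a group of 3 sum to 0, so these values cannot settle whether the numbers pair the samples. The replicate block called no clock gene. A filter of 5 CPM in 3 libraries removed LUX. Depth limits LUX, with 35 to 44 counts a library.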
